A study of Homo sapiens with 18 samples.

Results

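The mRNA of 9 target genes of the tumor suppressor p53 was followed across 18 RNA sequencing libraries of 2 *NRAS*-mutant melanoma lines, SKMEL2 and SKMEL30. The genes were *MDM2*, *CDKN1A*, *GDF15*, *FAS*, *TP53I3*, *TP53INP1*, *SESN1*, *RRM2B* and *ZMAT3*. They were chosen by name as established p53 targets, not by a rule on their values, but with earlier results of these data known. They are 9 of the 58051 genes in the count table. Each line carried a lentiviral tet-ON vector, pTRIPZ-PPP2R3B, kept under puromycin selection, which expresses Myc-tagged PPP2R3B, a regulatory subunit of the phosphatase PP2A, when doxycycline is present. Both lines were sampled uninduced, after 6 h and after 18 h of doxycycline, with 3 libraries in each of the 6 groups. The later time is 18 h in the labels, which are followed here, and a little shorter in the text of the study. No control cells without the *PPP2R3B* vector received doxycycline, so an effect of the drug and an effect of the subunit cannot be told apart, and with 1 line on each side a difference between lines belongs to these 2 lines. The labels do not say whether the 3 libraries of a group came from separate cultures, and p-values measure only the spread between these samples.

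p53 is a transcription factor that is held at a low level by the ubiquitin ligase MDM2 and is released when DNA is damaged or an oncogene drives the cell. It binds DNA as a tetramer, on pairs of a short palindromic half-site, and switches on genes that stop the cell cycle, repair DNA, limit oxidative damage or start apoptosis. *MDM2* is itself a target, which closes a negative feedback loop. In melanoma the pathway is often held down through *MDM2*, *MDM4* or loss of *CDKN2A*.

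The DNA before the start sites of the genes shows where the half-site can and cannot be read. Windows of 250 bases ahead of the transcript starts listed by RefSeq (GRCh38.p14) were available for 7 of the 9 genes, as 15 windows. They were searched for the p53 half-site, a motif of 10 bases that reads the same class of bases on both strands, and for the same motif with its 2 central bases left free, which includes the former. The strict half-site was found in 2 of the 15 windows and in 5.57% of 35116 windows of all genes, and the freer form in 10 of 15 and in 29.1%. Some windows of *MDM2* and *FAS* overlap and hold the same match, so that it is counted more than once. By gene, the strict form was found in 2 of 7 and the freer form in 6 of 7. The share of all genes with a match was not computed, so these counts by gene have no background. The 4 windows are printed 5′ to 3′ on the strand of the gene, with matches to the freer form in capitals. *CDKN1A* and *MDM2* are shown because they had the largest and the smallest difference between the lines, and *SESN1* and *FAS* because they hold the strict form.
CDKN1A (chr6:36678464-36678713, plus strand): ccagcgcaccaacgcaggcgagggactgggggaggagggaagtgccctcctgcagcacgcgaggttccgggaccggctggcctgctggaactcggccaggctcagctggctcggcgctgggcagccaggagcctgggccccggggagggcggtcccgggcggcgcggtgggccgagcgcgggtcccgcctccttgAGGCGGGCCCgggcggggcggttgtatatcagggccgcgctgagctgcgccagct
MDM2 (chr12:68808767-68809016, plus strand): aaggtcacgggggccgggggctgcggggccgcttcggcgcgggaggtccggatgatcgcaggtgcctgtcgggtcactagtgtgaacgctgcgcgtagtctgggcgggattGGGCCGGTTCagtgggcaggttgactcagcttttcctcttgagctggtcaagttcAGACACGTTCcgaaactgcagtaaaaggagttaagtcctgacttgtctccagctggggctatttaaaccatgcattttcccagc
SESN1 (chr6:109008989-109009238, minus strand): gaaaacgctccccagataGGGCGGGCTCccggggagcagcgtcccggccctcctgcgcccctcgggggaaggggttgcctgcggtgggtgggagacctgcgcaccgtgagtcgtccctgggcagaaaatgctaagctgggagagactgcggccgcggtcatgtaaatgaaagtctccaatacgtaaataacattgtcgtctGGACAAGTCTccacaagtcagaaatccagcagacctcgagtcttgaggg
FAS (chr10:88991181-88991430, plus strand): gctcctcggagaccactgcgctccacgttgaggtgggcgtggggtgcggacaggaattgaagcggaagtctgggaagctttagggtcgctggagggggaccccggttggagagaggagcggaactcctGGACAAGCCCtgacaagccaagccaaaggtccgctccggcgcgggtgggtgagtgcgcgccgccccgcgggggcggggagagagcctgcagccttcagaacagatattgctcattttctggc
The strict matches were GGACAAGTCT in *SESN1*, beginning 49 bases before that start, and GGACAAGCCC in *FAS*, 122 bases before. All 4 printed windows lie ahead of an internal start, within the annotated span of their gene. The window of *MDM2* holds AGACACGTTC 84 bases before its start. A match describes the letters only. The distal sites of *CDKN1A* lie outside such a window, and none of these data measured binding.

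Library totals ran from 13402645 to 22383470 counts. All 9 genes passed the filter on low counts in the main fits, among 16120 genes tested in SKMEL2, 15026 in SKMEL30 and 17133 over both lines. Levels are given as CPM, the counts of a gene scaled to a common library size, after TMM normalization over the 18 libraries. *PPP2R3B*, the check of induction, lay at 17.2 to 24.4 CPM in the uninduced libraries and at 343 to 617 CPM in the induced ones. It was 20.8-fold and 23-fold higher in SKMEL2 after 6 h and 18 h, and 25.8-fold and 29.4-fold higher in SKMEL30. The 8 melanocyte lineage markers were present in every library, with a summed level of 4216 to 4925 CPM in SKMEL2 and of 8801 to 9323 CPM in SKMEL30. Markers of other cell types were low. The summed level was 17.4 to 83.4 CPM for 4 keratinocyte markers with *KRT1* at 0 throughout, 3.10 to 6.08 CPM in SKMEL2 and 28.2 to 33.5 CPM in SKMEL30 for 4 fibroblast markers, 33.1 to 55.6 CPM for 4 immune markers, most of it from *CD68*, and 0.764 to 2.97 CPM for 2 endothelial markers. The third library of SKMEL2 cells induced for 6 h lay farthest from its group, with a median deviation of 0.126 (log2) against 0.0480 to 0.0973 in the others. The share of mitochondrial counts was 9.49% in the third uninduced SKMEL2 library and 8.76% in the second SKMEL2 library at 6 h, and 6.42% to 7.29% elsewhere.

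Induction of *PPP2R3B* was compared with uninduced cells to ask whether the p53 targets respond to it. None of the 9 genes passed the test in either line at either time, and most changes were small. By edgeR's quasi-likelihood test with Benjamini-Hochberg adjustment over all genes, 0 of 9 were called in SKMEL2 at 6 h (all genes, 0.0124%), at 18 h (0.0124%), in SKMEL30 at 6 h (0.206%) and at 18 h (0.293%). At an unadjusted p under 0.05 the counts were 0, 0, 1 and 0 of 9, against 3.37%, 4.65%, 6.44% and 9.14% of all genes, and DESeq2 called 0 of 9 in each comparison. The median log2 fold change of the 9 genes was -0.04 and 0.13 in SKMEL2 and 0.02 and 0.01 in SKMEL30, where the median over all genes tested was 0.00 each time. The 3 induced libraries lay apart from the 3 uninduced ones for 0 of 9 genes in SKMEL2 at 6 h (all genes, 6.8%), for *TP53INP1* at 18 h (14.3%), and for *GDF15* in SKMEL30 at 6 h (11.3%) and at 18 h (16.0%), each time above them. These shares of the 9 genes are near those of all genes.

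**Figure D1:**
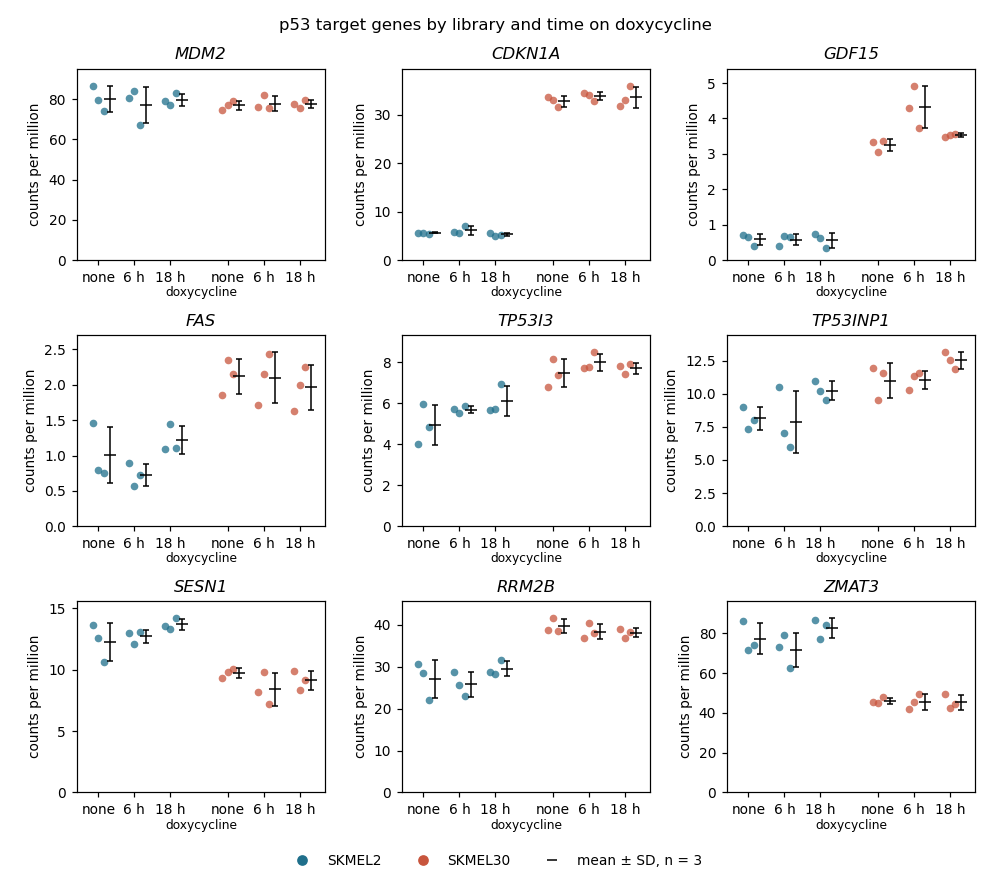
Level of the 9 p53 target genes in each of the 18 libraries, in CPM (vertical axis from 0), by time on doxycycline (horizontal axis) in SKMEL2 (blue) and SKMEL30 (red), with the mean ± SD of 3 libraries beside the points. CDKN1A and GDF15 stand far higher in SKMEL30 at every time, ZMAT3 higher in SKMEL2, and MDM2 at 67.2 to 86.6 CPM in both lines.

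*MDM2* (ENSG00000135679, chr12:68808172-68850686) encodes the ubiquitin ligase that marks p53 for degradation. Gene positions here and in what follows are those of RefSeq on GRCh38.p14. Uninduced SKMEL2 libraries held 86.6, 79.4 and 73.9 CPM, those at 6 h 80.4, 84 and 67.2 CPM and those at 18 h 79.2, 77.1 and 83 CPM. In SKMEL30 the values were 74.7, 77.3 and 79.2 CPM uninduced, 76.2, 82 and 75.4 CPM at 6 h and 77.6, 75.8 and 79.5 CPM at 18 h. All groups overlapped, and the lowest value came from the SKMEL2 library that stood apart. The log2 fold change was -0.05 (95% interval -0.23 to 0.14) at 6 h and -0.01 (95% interval -0.19 to 0.18) at 18 h in SKMEL2. In SKMEL30 the intervals were the narrowest of the 9 genes, 0.02 (95% interval -0.07 to 0.10) and 0.01 (95% interval -0.08 to 0.10). A change of *MDM2* beyond 1.07-fold upward at 6 h thus lay outside the interval in SKMEL30.

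*CDKN1A* (ENSG00000124762, chr6:36676463-36687332) encodes p21, the inhibitor of cyclin-dependent kinases through which p53 arrests the cell cycle. In SKMEL2 its libraries held 5.65, 5.67 and 5.46 CPM uninduced, 5.71, 5.51 and 7.07 CPM at 6 h and 5.67, 5.0 and 5.19 CPM at 18 h. In SKMEL30 they held 33.6, 33.1 and 31.5 CPM, 34.5, 34.1 and 32.8 CPM and 31.7, 33.1 and 35.9 CPM. Within each line the groups overlapped, while no library of either line came near those of the other. The log2 fold change was 0.12 (95% interval -0.18 to 0.43) at 6 h and -0.08 (95% interval -0.38 to 0.22) at 18 h in SKMEL2. It was 0.04 (95% interval -0.07 to 0.16) and 0.03 (95% interval -0.08 to 0.15) in SKMEL30, so that both upper bounds in that line were near 1.12-fold.

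*GDF15* (ENSG00000130513, chr19:18386158-18389176) encodes a secreted stress cytokine. It was the 1 gene with an unadjusted p under 0.05 on induction by edgeR within the line, in SKMEL30 at 6 h. In the same comparison 0 of the 9 genes passed that mark by DESeq2, or by edgeR with all 18 libraries in 1 fit. Its SKMEL30 libraries held 3.33, 3.06 and 3.36 CPM uninduced, 4.29, 4.92 and 3.74 CPM at 6 h and 3.48, 3.54 and 3.57 CPM at 18 h, from 53 to 98 counts a library. All 3 libraries at 6 h lay above the uninduced ones, and those at 18 h lay above them by a small margin. The log2 fold change at 6 h was 0.41 (95% interval 0.10 to 0.72), with an adjusted p of 0.624 by edgeR over all genes, and it ran from 0.30 to 0.51 as each library was left out. At 18 h it was 0.12 (95% interval -0.20 to 0.44). The keratinocyte keratin *KRT5* varied between the same libraries at 6 h, at 2.96, 0.0502 and 37.5 CPM, and the library with most *KRT5* had the least *GDF15* of the 3. The part of such cells in the result was not tested. In SKMEL2, *GDF15* lay at 0.331 to 0.747 CPM, or 6 to 17 counts, in all 9 libraries, and at this depth the interval ran from -0.93 to 0.92 at 18 h.

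*FAS*, *TP53I3* and *TP53INP1* act in cell death and the redox balance. *FAS* (ENSG00000026103, chr10:88964050-89017059) encodes the death receptor of the FAS ligand, and with *GDF15* it had the fewest counts. Its SKMEL2 libraries held 1.46, 0.796 and 0.748 CPM uninduced, 0.887, 0.574 and 0.726 CPM at 6 h and 1.1, 1.44 and 1.1 CPM at 18 h, which is 10 to 26 counts. In SKMEL30 they held 1.86, 2.35 and 2.15 CPM, 1.72, 2.16 and 2.43 CPM and 1.63, 2.0 and 2.25 CPM. The groups overlapped against uninduced cells in both lines, and the log2 fold changes were -0.42 (95% interval -1.17 to 0.32) and 0.30 (95% interval -0.39 to 0.98) in SKMEL2, wide intervals that hold a change in either direction. In SKMEL30 they were 0.01 (95% interval -0.43 to 0.45) and -0.11 (95% interval -0.56 to 0.34).

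*TP53I3* (ENSG00000115129, chr2:24077433-24084834) encodes a quinone oxidoreductase-like enzyme. Its SKMEL2 libraries held 4.02, 5.97 and 4.84 CPM uninduced, 5.71, 5.51 and 5.88 CPM at 6 h and 5.67, 5.72 and 6.95 CPM at 18 h, and the single uninduced library at 5.97 CPM made the groups overlap. In SKMEL30 the values were 6.82, 8.19 and 7.41 CPM, 7.72, 7.78 and 8.5 CPM and 7.83, 7.41 and 7.91 CPM. The log2 fold change in SKMEL2 was 0.20 (95% interval -0.14 to 0.55) at 6 h and 0.30 (95% interval -0.04 to 0.64) at 18 h, without passing the test (adjusted p by edgeR 0.989 and 0.987). In SKMEL30 it was 0.10 (95% interval -0.11 to 0.31) and 0.05 (95% interval -0.16 to 0.26).

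*TP53INP1* (ENSG00000164938, chr8:94925972-94949378) encodes a stress protein that acts with p53 in apoptosis and autophagy. Its SKMEL2 libraries held 9.03, 7.36 and 8.01 CPM uninduced, 10.5, 7.06 and 6.01 CPM at 6 h and 10.9, 10.2 and 9.49 CPM at 18 h. All 3 libraries at 18 h lay above the uninduced ones, whereas those at 6 h spread from 6.01 to 10.5 CPM. The log2 fold change was -0.04 (95% interval -0.42 to 0.34) and then 0.33 (95% interval -0.04 to 0.70), with an adjusted p of 0.987 by edgeR for the latter. SKMEL30 held 12, 9.5 and 11.5 CPM uninduced, 10.3, 11.3 and 11.5 CPM at 6 h and 13.1, 12.6 and 11.9 CPM at 18 h, and both induced groups overlapped the uninduced one. There the log2 fold change was 0.02 (95% interval -0.18 to 0.22) and 0.19 (95% interval -0.01 to 0.39).

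*SESN1*, *RRM2B* and *ZMAT3* serve metabolism, DNA repair and RNA processing. *SESN1* (ENSG00000080546, chr6:108984309-109094846) encodes a sestrin, which restrains mTORC1. Its SKMEL2 libraries held 13.6, 12.6 and 10.6 CPM uninduced, 13, 12.1 and 13.1 CPM at 6 h and 13.6, 13.3 and 14.2 CPM at 18 h. In SKMEL30 they held 9.3, 9.77 and 10.1 CPM, 8.19, 9.84 and 7.19 CPM and 9.9, 8.35 and 9.18 CPM. The induced groups overlapped the uninduced ones in both lines, and the log2 fold changes were 0.06 (95% interval -0.17 to 0.28) and 0.16 (95% interval -0.06 to 0.38) in SKMEL2 and -0.21 (95% interval -0.45 to 0.03) and -0.08 (95% interval -0.32 to 0.16) in SKMEL30.

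*RRM2B* (ENSG00000048392, chr8:102204501-102238961) encodes the p53-inducible small subunit of ribonucleotide reductase, which supplies nucleotides for DNA repair. Its SKMEL2 libraries held 30.6, 28.6 and 22 CPM uninduced, 28.8, 25.7 and 22.9 CPM at 6 h and 28.8, 28.2 and 31.6 CPM at 18 h, with the lowest value in the uninduced library of high mitochondrial share. SKMEL30 held 38.8, 41.5 and 38.6 CPM, 36.7, 40.3 and 38 CPM and 39, 36.9 and 38.4 CPM, and every one of these lay above every SKMEL2 value. The log2 fold changes were -0.06 (95% interval -0.32 to 0.20) and 0.13 (95% interval -0.13 to 0.38) in SKMEL2 and -0.05 (95% interval -0.15 to 0.06) and -0.06 (95% interval -0.16 to 0.05) in SKMEL30.

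*ZMAT3* (ENSG00000172667, chr3:179017223-179072513) encodes a zinc finger protein that binds RNA and acts in growth suppression. Its SKMEL2 libraries held 86.2, 71.5 and 74.3 CPM uninduced, 73.2, 79 and 62.4 CPM at 6 h and 86.5, 77.2 and 84.3 CPM at 18 h. In SKMEL30 they held 45.2, 45.2 and 47.7 CPM, 41.7, 45.3 and 49.6 CPM and 49.3, 42.2 and 44.4 CPM. The lowest SKMEL2 value was that of the library that stood apart at 6 h, and the groups overlapped within both lines. The log2 fold changes were -0.11 (95% interval -0.31 to 0.09) and 0.10 (95% interval -0.10 to 0.30) in SKMEL2 and -0.01 (95% interval -0.15 to 0.14) and -0.02 (95% interval -0.16 to 0.12) in SKMEL30.

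**Figure D2:**
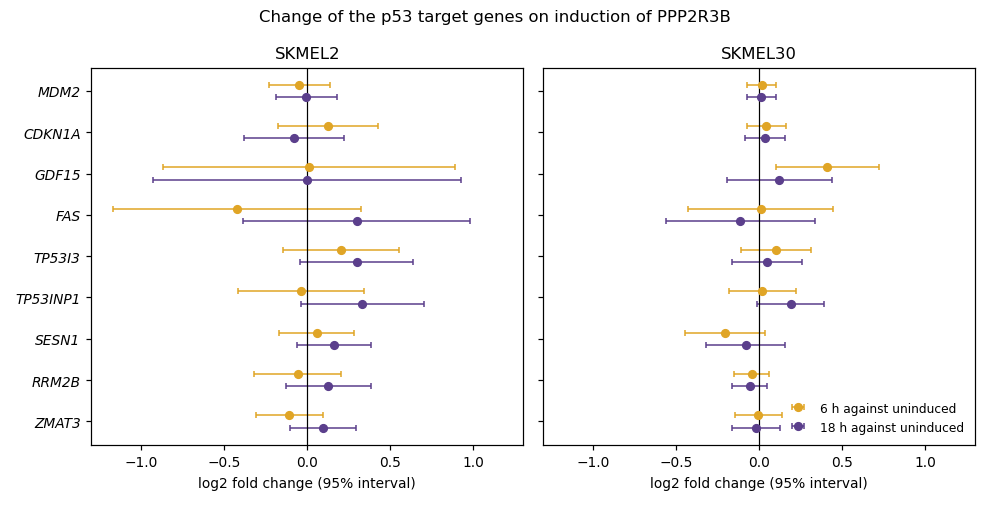
Log2 fold change of the 9 p53 target genes (horizontal axis) at 6 h (yellow) and 18 h (purple) against uninduced cells in each line, with 95% intervals from edgeR. The interval of GDF15 in SKMEL30 at 6 h, 0.10 to 0.72, is the single one of 36 that leaves out 0, before adjustment over all genes.

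The 2 times were also compared with each other. By edgeR, 0 of 9 genes were called at 18 h against 6 h in SKMEL2 (all genes, 0.0%) and 0 of 9 in SKMEL30 (0.02%), with 1 and 0 at an unadjusted p under 0.05 (all genes, 2.59% and 5.56%), and DESeq2 called 0 and 0. The 1 gene was *ZMAT3*, with a log2 difference of 0.20 in SKMEL2. In SKMEL2 the 3 libraries at 18 h lay above those at 6 h for *SESN1* and *FAS*, that is 2 of 9 genes (all genes, 7.85% in either direction). In SKMEL30 they lay below those at 6 h for *GDF15* and above for *TP53INP1* (all genes, 11.1%). The response was then compared between the lines as an interaction over all 18 libraries. By edgeR 0 of 9 genes differed in response at 6 h (all genes, 0.0%) and 0 of 9 at 18 h (0.00584%), with 0 and 0 at an unadjusted p under 0.05 (4.91% and 5.16%) and 0 and 0 called by DESeq2. The differences of response, SKMEL2 minus SKMEL30, ran from -0.43 for *FAS* to 0.26 for *SESN1* at 6 h and from -0.11 for *GDF15* to 0.41 for *FAS* at 18 h on the log2 scale. For each gene and line, a two-sided exact permutation test of 6 induced against 3 uninduced libraries was also run, with 84 splits and a smallest possible p of 0.0119. The smallest p was 0.0714, for *TP53I3* in SKMEL2 and for *GDF15* in SKMEL30, and 0.643 after Benjamini-Hochberg adjustment over the 18 tests.

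Among the negative regulators, *MDM4*, which blocks the activation domain of p53, gave log2 fold changes of -0.11 and -0.03 in SKMEL2 and of 0.00 and -0.08 in SKMEL30. *PPM1D*, the p53-induced phosphatase that switches the response off, gave -0.04 and -0.05 in SKMEL2 and 0.00 and -0.02 in SKMEL30, and neither was called.

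The wider pathway was read from 3 lists, of 20 regulators of p53, of 30 other targets and of 10 cell cycle genes that p53 lowers through p21 and the DREAM complex. By edgeR, 0 genes of any list were called on induction in either line at either time, and DESeq2 called 1, *CCNG1* in SKMEL2 at 6 h. At an unadjusted p under 0.05 the counts for SKMEL2 at 6 h and 18 h and SKMEL30 at 6 h and 18 h were 0, 0, 2 and 2 regulators, 1, 2, 1 and 4 other targets, and 0, 0, 0 and 4 cell cycle genes, where 3.37%, 4.65%, 6.44% and 9.14% of all genes passed. Of the 10 cell cycle genes 9 had a negative log2 fold change in SKMEL30 at 18 h. Their median was -0.07, against 0.00 over all genes tested. The share of all genes with a negative change was not computed, so this count has no background. *CCNG1*, the cyclin G1 gene, held 129, 124 and 118 CPM in uninduced SKMEL2. It held 151, 146 and 152 CPM at 6 h and 146, 149 and 141 CPM at 18 h. Both induced groups lay wholly above the uninduced one (all genes, 6.8% and 14.3% without overlap in either direction). At 6 h *CCNG1* had a log2 fold change of 0.28, with an adjusted p of 0.576 by edgeR within the line. The adjusted p was 0.0140 by DESeq2 and 0.0154 with all 18 libraries in a single edgeR fit, so the call turns on the fit. *GADD45A*, a gene of the DNA damage response, gave -0.23 in SKMEL30 at 18 h (edgeR, adjusted p = 0.339). The kinase gene *HIPK2*, whose product activates p53, gave 0.11 and the ubiquitin ligase gene *HUWE1* gave 0.08 in the same comparison (adjusted p = 0.305 and 0.422). *CCNA2* and *CDK1*, which drive S phase and mitosis, gave -0.14 and -0.13 there with adjusted p of 0.161 and 0.185, and were called once lowly counted genes were kept in the fit (adjusted p = 0.0393 and 0.0349).

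Between the lines the targets differed by more. Uninduced SKMEL30 was compared with uninduced SKMEL2 in a fit of all 18 libraries, and 8 of the 9 genes were called by edgeR, 6 of them higher in SKMEL30 and 2 lower. Of all genes 75.9% were called in this comparison, 35.8% higher and 40.1% lower. Counted in either direction, the number called among the 9 is near the background. DESeq2 called the same number, 8. The median absolute log2 difference was 0.59 for the 9 genes and 0.67 for all genes. In bulk RNA, fewer cells of a type and less RNA per cell cannot be told apart. Markers of the melanocyte, keratinocyte, fibroblast, immune and endothelial lists also differed between the lines, and their part in these differences was not tested.

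*CDKN1A* stood at 32.7 ± 1.11 CPM in uninduced SKMEL30 and 5.59 ± 0.118 CPM in uninduced SKMEL2 (SD, n = 3), a 5.85-fold level, with a log2 difference of 2.55 (SE 0.08, adjusted p = 7.44e-16). *GDF15* stood at 3.25 ± 0.165 CPM and 0.581 ± 0.162 CPM, 5.63-fold, with 2.49 (SE 0.25, adjusted p = 2.67e-08). Among all genes, 14.6% and 14.8% had a larger absolute difference than these. *FAS* was 2.15-fold higher in SKMEL30, at 2.12 ± 0.245 CPM against 1.0 ± 0.396 CPM, a log2 difference of 1.11 (SE 0.26, adjusted p = 0.000743) that ran from 0.93 to 1.46 as each library was left out. The other genes with higher levels in SKMEL30 were *TP53I3*, by 0.59 (SE 0.13, adjusted p = 0.000373), *RRM2B*, by 0.56 (SE 0.10, adjusted p = 2.76e-05), and *TP53INP1*, by 0.44 (SE 0.15, adjusted p = 0.0109). A larger difference was seen in 54.7%, 56.5% and 64.4% of all genes.

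*ZMAT3* was lower in SKMEL30, at 46 ± 1.47 CPM against 77.3 ± 7.77 CPM, with a log2 difference of -0.75 (SE 0.09, adjusted p = 2.29e-07). *SESN1* was lower by a smaller step, at 9.71 ± 0.386 CPM against 12.3 ± 1.54 CPM, with -0.33 (SE 0.11, adjusted p = 0.00993). Its call was lost without the first uninduced SKMEL2 library (-0.25, adjusted p = 0.0630). *MDM2* was the 1 gene not called, at 77.1 ± 2.24 CPM and 80 ± 6.36 CPM, with a difference of -0.05 (SE 0.07, adjusted p = 0.51) and a 95% interval from -0.20 to 0.09. A larger absolute difference was seen in 95.4% of all genes. The 9 targets thus did not all stand on 1 side between the lines. *CDKN1A* and *GDF15* were far higher in SKMEL30, *ZMAT3* was lower and *MDM2* was without a detectable difference. By count they leaned upward, with 6 of 9 called higher in SKMEL30 (all genes, 35.8%) and 2 lower (40.1%), and this lean was not tested.

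The same differences were read in induced cells, a comparison chosen after the values were seen. Between the lines 8 of 9 genes were called at 6 h (all genes, 75.4%) and 7 of 9 at 18 h (75.1%). *CDKN1A* differed by 2.48 and 2.66 and *GDF15* by 2.89 and 2.61 on the log2 scale, and *FAS* by 1.53 and 0.69. *TP53INP1* was not called at 18 h, at 0.29 (edgeR, adjusted p = 0.0699). *SESN1* differed by -0.59 and -0.58, with adjusted p of 8.64e-05 and 8.51e-05 by edgeR. Over all 9 libraries of each line, the 2 lines did not overlap for 6 of the 9 genes. *CDKN1A*, *GDF15*, *FAS* and *RRM2B* were higher in every SKMEL30 library (all genes, 29.8%), and *SESN1* and *ZMAT3* were lower (32.8%).

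**Figure D3:**
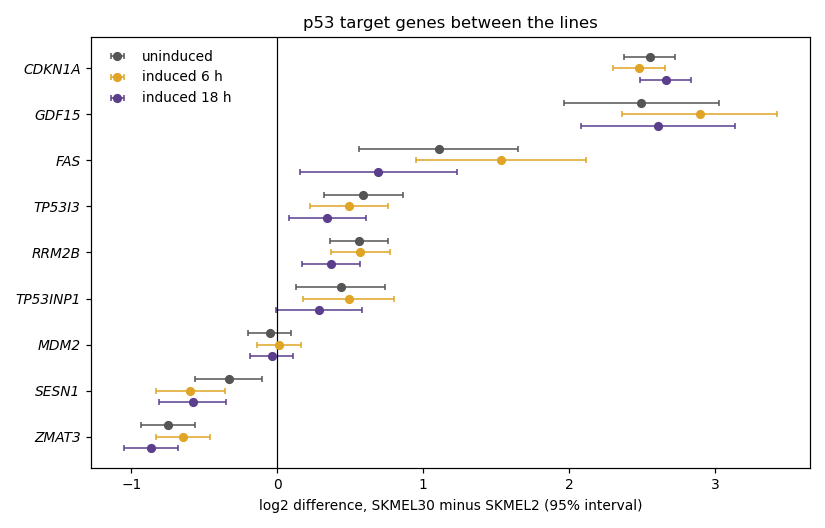
Log2 difference between the lines, SKMEL30 minus SKMEL2 (horizontal axis), for the 9 p53 target genes in uninduced (gray), 6 h (yellow) and 18 h (purple) cells, with 95% intervals from the edgeR fit of 18 libraries. CDKN1A and GDF15 lie between 2.48 and 2.89, MDM2 lies between -0.05 and 0.01, and SESN1 and ZMAT3 lie below it at all 3 times.

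Of the negative regulators, *MDM4* held 72.2, 66.6 and 69.8 CPM in SKMEL2 and 68.7, 70 and 68.6 CPM in SKMEL30, a difference of -0.01 with a 95% interval from -0.15 to 0.13. *PPM1D* was lower in SKMEL30, with a log2 difference of -0.45 (edgeR, adjusted p = 0.000201). mRNA levels carry no measure of the proteins, and no protein was measured in these files.

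Among the 20 regulators, 6 were called higher in SKMEL30 and 10 lower (all genes, 35.8% and 40.1%), with a median log2 difference of -0.20 against -0.05 over all genes. *HIPK2* was lower, at 89.3 ± 2.09 CPM against 324 ± 36.1 CPM. *TP63*, a relative of p53 that is best known in keratinocytes, held 392 to 522 counts in the uninduced SKMEL2 libraries and 0 or 1 count in those of SKMEL30. The keratinocyte keratins *KRT5* and *KRT14* were also lower in uninduced SKMEL30. *KRT5* stood at 8.27, 5.22 and 3.61 CPM in SKMEL2 and 0.169, 0.273 and 0.38 CPM in SKMEL30. *KRT14* stood at 6.76, 4.97 and 3.3 CPM and 0, 0.218 and 0.823 CPM. The means of *KRT10* were closer, at 22.9 and 18.3 CPM. Across SKMEL2 groups *TP63* stayed within 18.8 to 23.1 CPM while *KRT5* ranged from 0 to 8.27 CPM. In SKMEL30 the highest *TP63*, 13 counts, was in the 6 h library with the highest *KRT5*. That library held *KRT5* at 37.5 CPM, above every SKMEL2 library, and *TP63* at 0.607 CPM. The part of keratinocytes in the *TP63* levels was not tested. *TP73*, the other relative, was higher in SKMEL30 by 1.96 on the log2 scale, the checkpoint kinase gene *CHEK2* by 1.34 and *CDKN2A*, which encodes the MDM2 inhibitor p14ARF and the cell cycle inhibitor p16, by 0.97 (edgeR, adjusted p = 4.89e-09, 3.29e-11 and 8.44e-08).

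Of the 30 other targets 29 were tested between the lines, and 20 were called higher in SKMEL30 and 4 lower, with a median log2 difference of 0.33. Over all genes 35.8% were called higher and 40.1% lower, with a median of -0.05. The genes with the largest differences upward were *TRIM22*, an interferon-inducible protein, at 2.2, 1.04 and 0.886 CPM against 0.233, 0.249 and 0.396 CPM, the kinase gene *PLK2* at 55.1, 56.4 and 57.1 CPM against 11.9, 14 and 11.7 CPM, and the metastasis suppressor *CD82* at 14.7, 13.2 and 13.3 CPM against 3.9, 5.12 and 3.74 CPM. The values of these genes did not overlap between the lines, but the genes were picked for the size of that difference. The share of all genes without overlap was not computed for the uninduced libraries alone. *TRIM22* rested on few counts, 4 to 9 in the uninduced SKMEL2 libraries and 14 to 39 in those of SKMEL30. The largest differences downward were those of *EDA2R*, *PHLDA3* and *XPC*. *EDA2R*, a member of the TNF receptor family, held 121 to 148 counts in uninduced SKMEL2 libraries and 0 to 6 in those of SKMEL30. *PHLDA3*, an inhibitor of AKT, stood at 33.5, 40 and 36.5 CPM in SKMEL30 against 71.2, 76.5 and 70.4 CPM. *XPC*, which detects damaged DNA in nucleotide excision repair, stood at 26.2, 25.9 and 25.6 CPM against 48.8, 49.9 and 52.4 CPM. Of the 10 cell cycle genes, 10 were called higher in SKMEL30, with a median of 0.48. In this comparison 35.8% of all genes were called higher, and 75.9% in either direction.

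**Figure D4:**
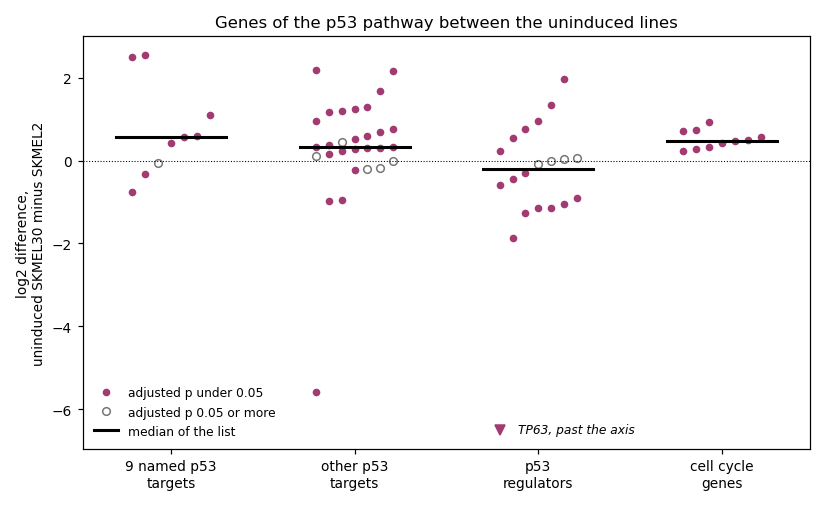
Log2 difference between the uninduced lines (vertical axis, SKMEL30 minus SKMEL2) for each tested gene of 4 lists, with filled points for an adjusted p under 0.05 by edgeR and a bar at the median. The medians are 0.56, 0.33, -0.20 and 0.48, and TP63 (0 or 1 count in SKMEL30) lies past the lower end of the axis.

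Levels between genes were compared per length, as CPM per kilobase of exon in uninduced cells. The order depends in part on the length used. In SKMEL2 the order ran from *MDM2* at 9.63 ± 0.766 (SD, n = 3), *ZMAT3* at 6.84 ± 0.688 and *RRM2B* at 5.02 ± 0.832 to *TP53I3* at 2.14 ± 0.423, *CDKN1A* at 1.87 ± 0.0393, *SESN1* at 1.69 ± 0.211 and *TP53INP1* at 1.44 ± 0.149. *FAS* at 0.281 ± 0.111 and *GDF15* at 0.278 ± 0.0776 came last and could not be ordered within their spread, nor could *TP53I3* and *CDKN1A*, *CDKN1A* and *SESN1*, or *SESN1* and *TP53INP1*. In SKMEL30 *CDKN1A* came first at 10.9 ± 0.37, followed by *MDM2* at 9.28 ± 0.27, *RRM2B* at 7.35 ± 0.303, *ZMAT3* at 4.08 ± 0.13, *TP53I3* at 3.23 ± 0.296, *TP53INP1* at 1.95 ± 0.232, *GDF15* at 1.56 ± 0.0792, *SESN1* at 1.33 ± 0.0531 and *FAS* at 0.595 ± 0.0687. *CDKN1A* thus had the highest level per kilobase in SKMEL30 and lay below *MDM2*, *ZMAT3* and *RRM2B* in SKMEL2, while *MDM2* held 9.63 and 9.28 CPM per kilobase.

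The shared movement of the 9 genes within a line was described by correlation. Over the 9 libraries of a line, the 36 pairs of genes had a median Pearson correlation of log2 CPM of 0.16 in SKMEL2, from -0.68 to 0.81, and of 0.10 in SKMEL30, from -0.61 to 0.64. Above 0.5 lay 10 pairs in SKMEL2 and 2 in SKMEL30, and the 10 were all drawn from *MDM2*, *SESN1*, *ZMAT3*, *FAS*, *RRM2B* and *TP53INP1*. The share of all gene pairs above 0.5 was not computed. The highest in SKMEL2 was that of *MDM2* with *ZMAT3*, at 0.81, where it was 0.10 in SKMEL30, and *MDM2* and *CDKN1A*, both direct p53 targets, stood at -0.63 and 0.16. *SESN1* and *RRM2B* gave 0.78 and 0.64. The libraries share depth and quality differences, among them the SKMEL2 library that stood apart, so these values are a description. Among 14079 genes tested in both lines, the patterns most like *CDKN1A* by the mean correlation over the 2 lines were those of *ZNF524* (0.86), *UBE2Z* (0.82) and *CCDC40* (0.81). Those most like *MDM2* were *NARS1* (0.91), *LRIF1* (0.91) and *ABCD3* (0.90). The 9 genes themselves were left out of this ranking, so they could not appear in it. None of the 6 is among the 30 other targets of the wider pathway.

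Some of the genes share their locus with another gene, and the setting of strand in the counting is not stated, so reads in shared stretches cannot be assigned with certainty. The carboxypeptidase M gene, which overlaps *MDM2*, held 239 to 851 counts a library against 977 to 1803 for *MDM2*. *NDUFAF6* held 209 to 505 counts against 91 to 249 for *TP53INP1*, and *FAM228B* 49 to 116 against 69 to 182 for *TP53I3*. *ARMC2* held 16 to 67 against 105 to 309 for *SESN1*, and *ACTA2* 0 to 12 against 10 to 52 for *FAS*. The antisense transcripts FAS-AS1 and DINOL, near *FAS* and *CDKN1A*, were not analysed here.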

How the data were processed

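RNA of 18 samples was sequenced as poly(A) libraries with paired reads of 43 bases. According to the submitters' processing notes the authors trimmed with Trimmomatic 0.36 and cutadapt 1.5, aligned with STAR 2.2.2a and estimated counts with RSEM 1.3.0, whereas the methods of the study name Cutadapt 1.9.1 and STAR 2.5.2a. The annotation was Ensembl 86. The values deposited by the authors are RSEM expected counts per gene, not normalized, of which 12.3% were not whole; they were rounded here. A symbol was matched to 55604 of the 58051 gene IDs, and RefSeq gene positions and promoter windows to the 9 and to 7 of the 9 genes.

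Genes passing filterByExpr were normalized by TMM and fitted with edgeR 4.0.16 (R 4.3.3) by the quasi-likelihood test, within a line for induction and over all libraries for the lines and the interaction, with Benjamini-Hochberg adjustment over all genes and a threshold of 0.05. Correlations used log2 CPM with a pseudocount of 0.5. DESeq2 1.42.0, other filters, sample sets and normalizations, and leaving out each library were alternatives. The scripts were tested on simulated data. The common dispersion of the fits, as a coefficient of variation, came to 8.36% (SKMEL2) and 4.11% (SKMEL30), and depth limits GDF15 and FAS most. Exon lengths came from an annotation of another build by gene ID.

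The members, the lists and the markers were chosen with earlier results of these data known. Genes were named by a rule: the 9 members, PPP2R3B, MDM4 and PPM1D, the genes of each list called on induction or else the 2 with the smallest p, the 3 called genes with the largest difference between lines in each direction among regulators and other targets, the 3 genes most like CDKN1A and MDM2, and genes overlapping a member. KRT5, KRT14 and, within the marker lists, those at 0 were named after their values were seen. Some genes of the rule and of the marker lists are not reported here.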

Additional observations from a re-analysis of the deposited data

How the results depend on the processing

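Under every alternative run, 0 of the 9 genes were called on induction, between the times or between the responses of the lines, and 7 or 8 were called between the uninduced lines. With a minimum of 10 counts in every library, only 8 of the 9 were tested in SKMEL2 and over both lines. The number of genes called among all genes moved more, from 2, 2, 31 and 44 on induction (SKMEL2 at 6 h and 18 h, SKMEL30 at 6 h and 18 h), 0 and 3 between the times (SKMEL2, SKMEL30) and 0 and 1 between the responses (6 h, 18 h). Without the filter on low counts it was 158, 168, 321, 359, 135, 197, 237 and 216. With DESeq2 it was 8 and 11 in SKMEL2, 71 in SKMEL30 at 18 h, 5 and 12 between the times and 3 between the responses at 18 h. With all 18 libraries in 1 fit it was 6, 7, 5 and 9 on induction and 0 between the times in SKMEL30. With only the 6 libraries compared it was 9 in SKMEL2 at 18 h and 0 between the times in SKMEL30, where a minimum of 10 counts gave 5. Leaving out each library gave 2 to 5 in SKMEL2 at 6 h, 16 to 33 and 25 to 30 in SKMEL30, 0 to 1 and 0 to 5 between the times, and 0 to 1 and 1 to 2 between the responses. The cause was not tested.

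The signs of small changes that were not called also moved. GDF15 in SKMEL2 was -0.0028 at 6 h without the filter, and at 18 h 0.0071 with all libraries and 0.0010 with only 6. Between the lines in cells induced for 6 h, chosen after seeing the data, MDM2 gave 0.012 and MDM4 0.10. As each library was left out, the log2 fold changes in SKMEL2 at 6 h ran from -0.22 to 0.25 for GDF15, -0.11 to 0.035 for MDM2, -0.19 to 0.042 for RRM2B, -0.044 to 0.14 for SESN1 and -0.30 to 0.11 for TP53INP1. At 18 h they ran from -0.28 to 0.26 for GDF15, -0.062 to 0.060 for MDM2 and -0.0071 to 0.23 for RRM2B. In SKMEL30 at 6 h they ran from -0.11 to 0.11 for FAS, -0.022 to 0.040 for MDM2, -0.080 to 0.086 for TP53INP1 and -0.077 to 0.044 for ZMAT3. At 18 h they ran from -0.018 to 0.077 for CDKN1A, -0.23 to 0.0095 for FAS, -0.0097 to 0.032 for MDM2, -0.015 to 0.12 for TP53I3 and -0.086 to 0.027 for ZMAT3. Between the uninduced lines they ran from -0.10 to 0.015 for MDM2 and -0.028 to 0.025 for MDM4. The length of the longest transcript in place of the exon length moved 14 of 18 levels per kilobase by more than 1 SD. It also put GDF15 before TP53INP1 in SKMEL30.

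The replicate numbers were not taken as pairs, since the deviations of same-numbered libraries correlated above 0.1 in 3 of 9 pairs in SKMEL2 and 2 of 9 in SKMEL30. With the replicate block the number of genes called was 7 in SKMEL2 at 18 h and 16 between the times in SKMEL30, FAS in SKMEL30 at 6 h was -0.018, and 0 of the 9 genes were called on induction.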
